A study of Mus musculus with 4 samples.

Results

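Toll-like receptors are membrane proteins that detect molecules of microbes and of damaged cells. The family members described here are the 10 genes Tlr1, Tlr2, Tlr3, Tlr4, Tlr5, Tlr6, Tlr7, Tlr8, Tlr9 and Tlr13, chosen by gene symbol from the 21878 rows of each count table. Each of the 10 was present in all 4 tables and passed the filter on low counts. They were split by where the protein acts into 5 surface receptors (Tlr1, Tlr2, Tlr4, Tlr5, Tlr6) and 5 endosomal receptors (Tlr3, Tlr7, Tlr8, Tlr9, Tlr13).

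RNA came from livers of C57BL/6 mice, from cells collected on magnetic columns (MACS) by their surface protein CD24, and the labels name the cell type as hepatocytes. The 2 HACY libraries came from mice injected 3 times a week for 6 weeks with a cocktail of CHIR99021, which inhibits the kinase GSK3, A-83-01, which inhibits TGF-beta receptor kinases, and the compound Y-27632. The 2 CCL4 libraries came from mice injected 2 times a week for 6 weeks with carbon tetrachloride, a liver toxin, at 2 ml/kg in olive oil. Injections began at 8 weeks of age, and the age label of all samples is 6 to 8 weeks. The labels do not say whether HACY mice also received carbon tetrachloride, and no untreated group was analysed here, so a rise or a fall is HACY relative to CCL4. The labels do not say whether the replicates are separate animals, so p-values measure the spread between these libraries, which may be technical.

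As background, surface receptors bind lipids, lipoproteins and proteins of bacteria, and endosomal receptors bind nucleic acids after uptake. Ligand binding brings the intracellular TIR domains together, which recruit the adaptors MyD88 or TRIF and activate NF-kappaB and interferon regulatory factors. In the liver these receptors are known mainly from Kupffer cells, the resident macrophages, and also from sinusoidal endothelial cells, stellate cells, hepatocytes and other leukocytes. These are bulk libraries, in which fewer cells of a type and less RNA per cell cannot be told apart.

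Library totals were 18985478 to 19151738 counts in HACY and 18467299 to 19314219 in CCL4. Levels below are CPM, read counts scaled to library size and edgeR's TMM factors, unless given as FPKM, the authors' values per transcript length. A gene was called when edgeR's quasi-likelihood test gave a Benjamini-Hochberg adjusted p below 0.05 over 13428 genes. By that rule 8.19% of the genes tested were higher in HACY and 3.54% were lower, 1100 against 476 genes. Scaling by library size alone gave 856 against 1355. Albumin, the main hepatocyte product, was abundant in every library (Alb, 24000 and 30360 CPM in HACY, 6971 and 5497 in CCL4). Cd24a, which encodes the sorted protein, had 21.9 and 19.4 CPM in HACY and 20.7 and 38.0 in CCL4.

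Of the 10 Toll-like receptors, 7 were higher in HACY and none was called lower, against the 8.19% and 3.54% of all genes. DESeq2 also called 7 higher and 0 lower, and no member had a negative change at an unadjusted edgeR p below 0.05. The 7 were the 5 endosomal receptors with Tlr1 and Tlr4, and their rises were between 2.04-fold and 3.88-fold. Tlr2, Tlr5 and Tlr6 were not called. The median log2 fold change was 1.26 over the 10 members, 1.57 over the endosomal and 1.03 over the surface receptors, against -0.009 over all genes tested. Both HACY libraries lay above both CCL4 libraries for 9 members, a pattern seen in 30.7% of all genes tested. For the other member, Tlr5, both HACY libraries lay below, as in 30.1% of genes. All 10 were lower in HACY replicate 2 than in HACY replicate 1, with log2 ratios of -0.07 to -0.45. Their summed level had a ratio of 0.81, HACY replicate 2 over HACY replicate 1. For summed markers described below that ratio was 0.638 (plasmacytoid dendritic cell), 0.713 (macrophage), 0.742 (endothelial), 0.805 (B cell) and 0.812 (monocyte). It was 0.813 (conventional dendritic cell), 0.898 (stellate cell and fibroblast), 1.08 (T and NK cell), 1.10 (neutrophil) and 1.27 (hepatocyte). Between the CCL4 libraries, replicate 2 over replicate 1, it was 1.09 for the receptors and 1.34 for the macrophage markers. Without HACY replicate 1, 4 members were called, with Tlr4, Tlr7 and Tlr9 lost, and without CCL4 replicate 2 there were 8, with Tlr6 added.

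**Figure D1:**
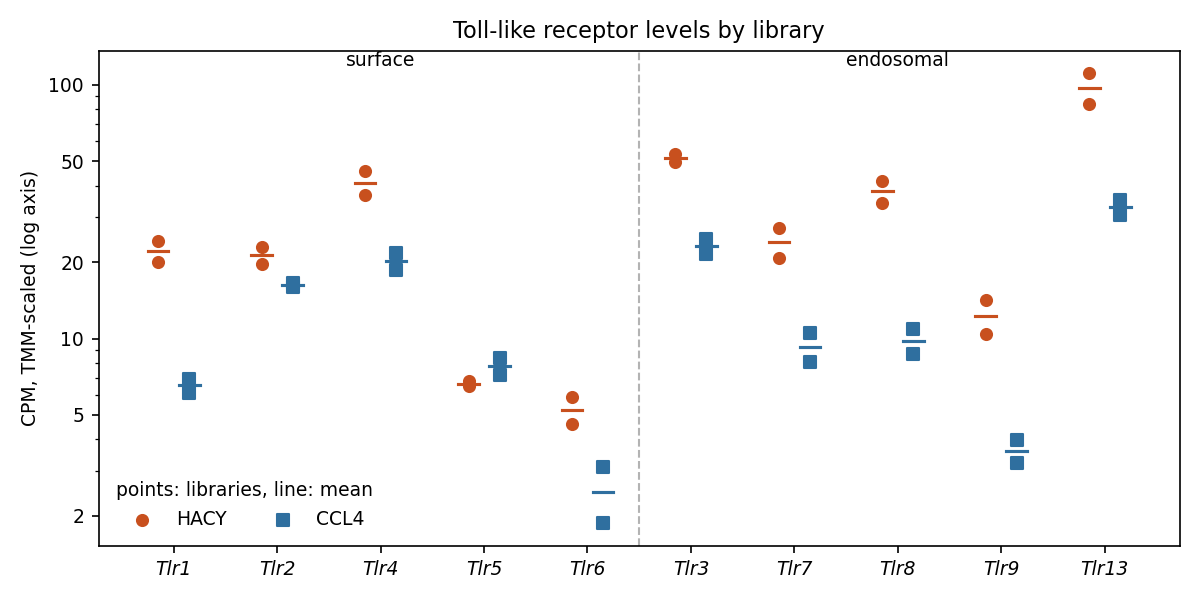
Level of each Toll-like receptor in CPM on a log axis, with 1 point for each of the 2 HACY libraries (circles) and the 2 CCL4 libraries (squares) and a line at the group mean. The HACY points lie above the CCL4 points for every receptor but Tlr5, and the groups lie closest together for Tlr2 and Tlr5.

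Among the endosomal receptors Tlr8, an RNA sensor in humans whose mouse ligand is less clear, had the largest fold change of the family. It had 41.9 and 34.2 CPM in HACY libraries, against 8.70 and 10.9 in CCL4 libraries. The lower HACY library was thus 3.14 times the higher CCL4 library. Tlr8 rose by 1.96 on the log2 scale (SE 0.21, edgeR adjusted p = 0.00275), and 98.2% of tested genes had a lower log2 fold change. Tlr13, which senses bacterial ribosomal RNA in mice, had the most reads of the family in every library. It had 111 and 83.9 CPM in HACY against 30.6 and 35.2 in CCL4, with no overlap. The rise was 1.57 on the log2 scale (SE 0.18, edgeR adjusted p = 0.00325).

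Tlr9, the receptor for unmethylated CpG DNA, had the fewest reads of the endosomal receptors. It had 14.1 and 10.4 CPM in HACY against 3.24 and 3.99 in CCL4. The HACY libraries were both higher, by 1.76 on the log2 scale (SE 0.29, edgeR adjusted p = 0.0119). Tlr7, which detects single-stranded RNA, had 27.4 and 20.8 CPM in HACY and 8.09 and 10.5 in CCL4. Its groups did not overlap either, and it rose by 1.37 (SE 0.24, edgeR adjusted p = 0.0142). Without HACY replicate 1 the calls of Tlr9 and Tlr7 were lost, at log2 fold changes of 1.52 and 1.15 (edgeR adjusted p = 0.0780 and 0.0797).

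Tlr3, the receptor for double-stranded RNA, is the member that signals through the adaptor TRIF and not MyD88. It had 53.4 and 49.4 CPM in HACY against 24.7 and 21.6 in CCL4, and the lower HACY library was 2.00 times the higher CCL4 library. Its rise of 1.15 on the log2 scale was the smallest of the endosomal receptors (SE 0.16, edgeR adjusted p = 0.00636). The CCL4 libraries of Tlr3 stood in another order than those of the other endosomal members. CCL4 replicate 2 was below replicate 1 for Tlr3, with a log2 ratio of -0.20, whereas for Tlr7, Tlr8, Tlr9 and Tlr13 it was above by 0.20 to 0.38.

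The DNA before the start sites of 3 of these receptors is shown because Tlr8, Tlr9 and Tlr13 rose together and belong to the most changed members. Each line gives the 250 bases before the RefSeq start (GRCm38.p6), on the strand of the gene. Capitals mark GAGGAA or its reverse complement, the core bound by PU.1, a transcription factor of myeloid cells, and related ETS factors. Tlr8 is read from chrX:167264330-167264579 (minus strand), Tlr9 from chr9:106222348-106222597 (plus strand) and Tlr13 from chrX:106143025-106143274 (plus strand).
Tlr8: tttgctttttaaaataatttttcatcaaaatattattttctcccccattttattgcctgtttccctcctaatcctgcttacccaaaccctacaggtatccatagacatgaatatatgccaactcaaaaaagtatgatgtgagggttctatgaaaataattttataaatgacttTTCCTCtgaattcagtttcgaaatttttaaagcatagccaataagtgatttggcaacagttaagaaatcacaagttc
Tlr9: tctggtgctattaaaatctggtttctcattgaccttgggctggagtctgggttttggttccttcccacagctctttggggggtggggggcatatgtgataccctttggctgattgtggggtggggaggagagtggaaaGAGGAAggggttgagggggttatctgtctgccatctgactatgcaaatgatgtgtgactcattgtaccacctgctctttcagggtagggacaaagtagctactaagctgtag
Tlr13: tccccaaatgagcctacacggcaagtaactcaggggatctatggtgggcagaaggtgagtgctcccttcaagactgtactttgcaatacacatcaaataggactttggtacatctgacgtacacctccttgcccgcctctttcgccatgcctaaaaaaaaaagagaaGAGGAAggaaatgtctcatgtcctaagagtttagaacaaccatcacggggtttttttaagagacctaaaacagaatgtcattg
The matches begin 77, 112 and 83 bases before the start of Tlr8, Tlr9 and Tlr13.

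Among the surface receptors Tlr1, which pairs with TLR2 to bind triacylated lipopeptides, changed most. It had 24.2 and 19.98 CPM in HACY against 6.12 and 6.95 in CCL4, so that the lower HACY library was 2.87 times the higher CCL4 library. Tlr1 rose by 1.76 on the log2 scale (SE 0.22, edgeR adjusted p = 0.00446), equal to that of Tlr9 to 2 decimals. Tlr4, the receptor for lipopolysaccharide, had 45.6 and 36.7 CPM in HACY and 18.6 and 21.8 in CCL4. These groups did not overlap, and Tlr4 rose by 1.03 on the log2 scale (SE 0.19, edgeR adjusted p = 0.017). Leaving out HACY replicate 1 gave 0.86 (edgeR adjusted p = 0.124).

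Tlr6, which pairs with TLR2 for diacylated lipopeptides, had 5.90 and 4.60 CPM in HACY and 1.87 and 3.11 in CCL4. The HACY libraries were both higher, but CCL4 replicate 2 exceeded replicate 1 by 0.73 on the log2 scale, the widest replicate gap of the family. Its log2 fold change of 1.07 (SE 0.38) had an edgeR adjusted p of 0.109, and without CCL4 replicate 2 it was 1.49 (edgeR adjusted p = 0.0361). Tlr2, the shared partner of Tlr1 and Tlr6, had 22.9 and 19.7 CPM in HACY and 15.9 and 16.6 in CCL4. The gap between groups was small, with a log2 fold change of 0.39 (SE 0.19, edgeR adjusted p = 0.21). Tlr5, the flagellin receptor, had 6.77 and 6.47 CPM in HACY and 8.39 and 7.20 in CCL4. It was the member with a negative log2 fold change, -0.235 (SE 0.26, edgeR adjusted p = 0.586).

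The windows of Tlr1, Tlr2 and Tlr5 are printed so that a changed surface receptor can be set beside 2 that were not called. The bases and build are as above, with Tlr1 from chr5:64933559-64933808 (minus strand, the first of 2 listed starts), Tlr2 from chr3:83841609-83841858 (minus strand) and Tlr5 from chr1:182954538-182954787 (plus strand). Capitals mark GAGGAA in Tlr1 and, in Tlr2, a form of the NF-kappaB site, here GGG, any 3 bases, T, any 1 base and CC.
Tlr1: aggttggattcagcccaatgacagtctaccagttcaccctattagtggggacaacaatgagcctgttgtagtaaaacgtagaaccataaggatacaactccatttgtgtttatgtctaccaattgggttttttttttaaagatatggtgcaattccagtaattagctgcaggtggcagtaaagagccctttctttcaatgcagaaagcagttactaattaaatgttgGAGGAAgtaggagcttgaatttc
Tlr2: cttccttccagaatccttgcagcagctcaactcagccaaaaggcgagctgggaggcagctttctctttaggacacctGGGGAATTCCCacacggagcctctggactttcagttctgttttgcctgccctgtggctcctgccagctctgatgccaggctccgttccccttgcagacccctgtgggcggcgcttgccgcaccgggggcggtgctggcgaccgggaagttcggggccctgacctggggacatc
Tlr5: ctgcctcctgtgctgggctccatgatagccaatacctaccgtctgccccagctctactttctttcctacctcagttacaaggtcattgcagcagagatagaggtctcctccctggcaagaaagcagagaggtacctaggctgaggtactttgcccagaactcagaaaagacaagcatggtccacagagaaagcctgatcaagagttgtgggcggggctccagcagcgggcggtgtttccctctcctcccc
The Tlr1 match begins 23 bases before the start. The Tlr2 window holds 2 overlapping matches to it, which begin 173 and 172 bases before the start, and the Tlr5 window holds no match to either motif.

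Start windows were listed for 8 of the 10 receptors, the exceptions being Tlr4 and Tlr7. On either strand, GAGGAA occurred in those of Tlr1, Tlr8, Tlr9 and Tlr13, 4 of 8, and in 23.1% of the windows of the same length of 27025 genes (first listed start of each). These 4 are the members with the 4 largest log2 fold changes, an order known when the motif was chosen and so no test of it. In Tlr1 the first window held the match and the second held none. Tlr4 and Tlr7, both called higher, could not be searched. The kappaB form occurred in the first windows of Tlr2 and Tlr3 and the second of Tlr6, against 14.7% of genes. The core of the interferon-stimulated response element (GAAA, any 2 bases, GAAA) occurred in the first window of Tlr6 alone among the 8, as 2 overlapping matches, against 3.04% of genes. The motifs were chosen after sequences and values had been seen, and a match describes letters, not binding.

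**Figure D2:**
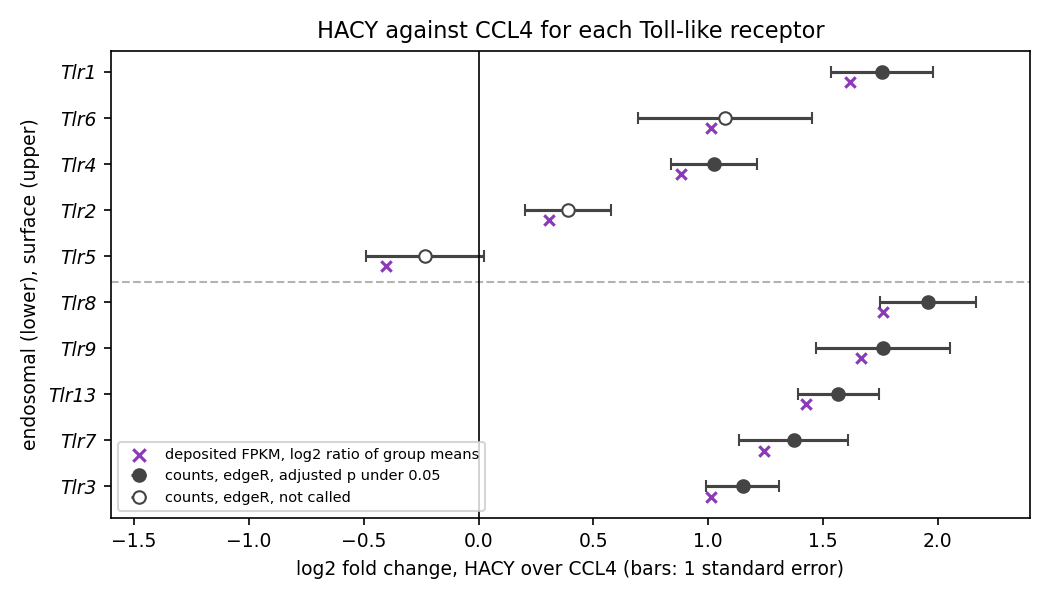
Log2 fold change of each receptor, HACY over CCL4, from the counts by edgeR with 1 standard error (filled circles called, open circles not called), and the log2 ratio of the group means of the deposited FPKM (crosses). All 5 endosomal receptors lie at 1.15 or above, whereas the surface receptors spread between -0.235 and 1.76.

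On the FPKM scale, which allows genes to be compared per length, Tlr13 had the highest level in both groups. It averaged 20.03 ± 4.72 FPKM in HACY and 7.47 ± 0.971 in CCL4 (SD, n = 2 each). The order in HACY was Tlr13, Tlr2, Tlr3, Tlr8, Tlr4, Tlr1, Tlr7, Tlr9, Tlr6 and Tlr5. In that order the libraries of Tlr2 and Tlr3 overlapped, and so did each neighbouring pair from Tlr8 to Tlr7. The order in CCL4 was Tlr13, Tlr2, Tlr3, Tlr4, Tlr7, Tlr8, Tlr1, Tlr5, Tlr9 and Tlr6, and the overlapping neighbours were Tlr7 with Tlr8, Tlr8 with Tlr1, and Tlr5 with Tlr9. The top 3 were the same in both groups. Tlr5 ranked 10 in HACY, at 0.755 ± 0.00836 FPKM, and 8 in CCL4, at 0.998 ± 0.0781 (SD, n = 2 each).

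The FPKM ratios gave the same direction for all 10 members, with log2 ratios 0.061 to 0.197 lower than the edgeR values. Tested by limma on log2(FPKM + 1), where 4.39% of genes were higher and 3.57% lower in HACY, 5 members were called. Tlr4 and Tlr7 were not called there, with adjusted p = 0.0713 and 0.0555 by limma. On that scale their log2 differences were 0.71 (SE 0.18) and 0.95 (SE 0.21), which understate the change of low genes. The other mouse members, Tlr11 and Tlr12, were near the floor in every library, with 1 to 8 counts each, and were not tested.

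Endosomal receptors took a larger part of the family's reads in HACY. Their share of the reads of the 10 receptors was 70.2% and 69.4% in HACY libraries, against 59.7% and 59.6% in CCL4 libraries. The 95% exact binomial intervals were 69.0 to 71.3% and 68.1 to 70.7% in HACY, and 57.7 to 61.6% and 57.8 to 61.4% in CCL4, and cover counting error only. The intervals of replicates overlapped, and those of the HACY libraries lay above those of the CCL4 libraries. In FPKM the shares were 67.5% and 66.1% in HACY and 54.9% and 56.6% in CCL4. Tlr13 alone made up 31.5% and 29.3% of the family's reads in HACY and 24.2% and 25.5% in CCL4. The summed level of the endosomal receptors was 248 and 199 CPM in HACY and 75.3 and 82.2 in CCL4, a ratio of means of 2.835. That of the surface receptors was 105 and 87.5 CPM in HACY and 50.9 and 55.7 in CCL4, a ratio of 1.81. The difference between the classes was not tested, since the family was chosen with results known.

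**Figure D3:**
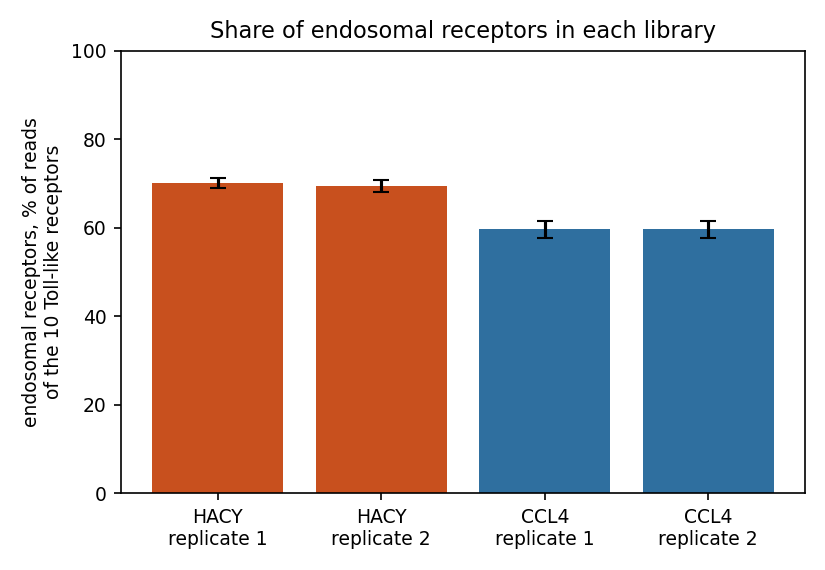
Percent of the reads of the 10 Toll-like receptors that fall on the 5 endosomal ones, for each library, with the exact 95% binomial interval as error bars. The HACY bars stand at 70.2% and 69.4% and the CCL4 bars at 59.7% and 59.6%.

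Macrophage markers moved with the receptors. Of 15 markers of macrophages and Kupffer cells, 14 were higher in HACY, beside 8.19% of all genes tested. Their median log2 fold change was 1.62, and none was at 0 in any library. With 1 library left out the median was between 1.455 and 1.763. Some of the 14 calls were lost when either HACY library was left out, but not when a CCL4 library was. With the replicate number as a block in the model 13 were called higher, C1qb being lost (edgeR adjusted p = 0.0668). Their summed level was 4381 and 3124 CPM in HACY and 1222 and 1639 in CCL4, a ratio of 2.62, beside 2.42 for the 10 receptors. The markers with the most reads were Cd5l (938 and 638 CPM in HACY, 244 and 268 in CCL4), Cd68 (750 and 571, against 312 and 346), Lyz2 (709 and 446, against 170 and 444) and C1qb (422 and 299, against 104 and 178). Lyz2 was the marker not called. Their part in the result was not tested, and the following ratios are a description.

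Set against the summed macrophage markers, the 10 receptors together had 80.6 and 91.6 CPM per 1000 marker CPM in HACY, against 103 and 84.1 in CCL4, so the groups overlapped. The endosomal receptors had 56.6 and 63.6 in HACY and 61.7 and 50.1 in CCL4, which also overlapped. The surface receptors had 24.1 and 27.99 in HACY, both below the 41.7 and 34.0 in CCL4. Tlr8 had 9.56 and 10.9 in HACY and 7.12 and 6.65 in CCL4, and Tlr2 had 5.24 and 6.30 in HACY and 13.0 and 10.1 in CCL4. Tlr7 was nearly level, with 6.25 and 6.65 in HACY and 6.62 and 6.41 in CCL4. Tlr1, Tlr8, Tlr9 and Tlr13 lay higher in both HACY libraries by this measure. Against the geometric mean of the same markers, Tlr1, Tlr8 and Tlr9 overlapped between groups and Tlr13 lay lower in HACY. By that second measure the 10 receptors together and the endosomal receptors also lay lower in both HACY libraries, with log2 differences of -0.512 and -0.285, as did Tlr3 and Tlr7. Tlr2, Tlr4, Tlr5 and Tlr6 lay lower in both HACY libraries by either measure.

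**Figure D4:**
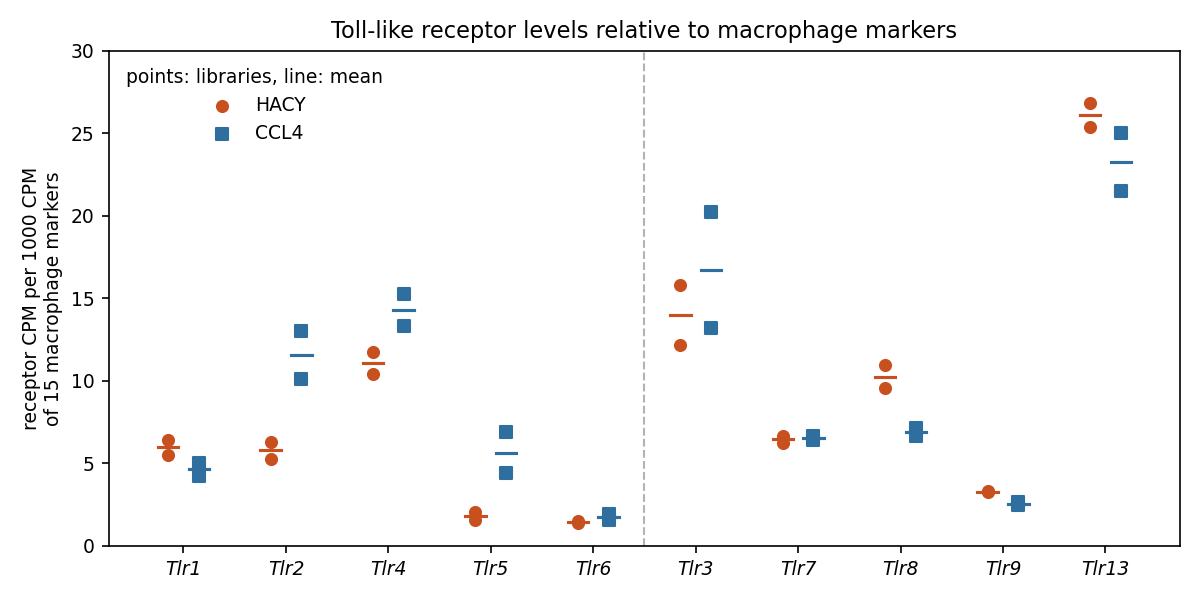
Receptor CPM per 1000 CPM of the summed 15 macrophage markers, with points for the HACY (circles) and CCL4 (squares) libraries and a line at each mean. Tlr8 lies higher in HACY, with 9.56 and 10.9 against 7.12 and 6.65, while Tlr2, Tlr4, Tlr5 and Tlr6 lie lower in HACY.

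Other cells that carry these receptors left different traces, and their part was likewise not tested. Counts of called markers in this and the next paragraph stand beside 8.19% of all genes tested called higher and 3.54% lower. Endothelial markers had 3 of 8 members higher and 1 lower, with sums of 1593 and 1182 CPM in HACY and 530 and 870 in CCL4. There were 6 higher without CCL4 replicate 2 and 1 higher without HACY replicate 1 or without CCL4 replicate 1. The marker called lower, Clec4g, a lectin of sinusoidal cells, was no longer called without either HACY library or without CCL4 replicate 2. DESeq2 called 6 higher and 0 lower, and limma-voom 2 and 0. Monocyte markers summed to 303 and 247 CPM in HACY and 79.8 and 188 in CCL4, with a median log2 fold change of 0.902. Of 5 tested monocyte markers none was called by edgeR, 2 had a positive change at an unadjusted p below 0.05 and DESeq2 called 1. Without CCL4 replicate 2 there were 3 higher. Hepatocyte markers had 4 of 8 members higher, with sums of 30160 and 38390 CPM in HACY and 10430 and 9114 in CCL4. B cell markers were low and level, at 31.0 and 24.9 CPM in HACY and 27.0 and 27.7 in CCL4 summed over 8 genes. No B cell marker was called by edgeR or DESeq2 or had an unadjusted p below 0.05. Of 6 tested markers of stellate cells and fibroblasts none was called by edgeR or DESeq2. Their sums were 395 and 355 CPM in HACY and 238 and 418 in CCL4.

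Neutrophil markers differed widely between the CCL4 libraries. They summed to 40.3 and 44.4 CPM in HACY, and to 32.3 in CCL4 replicate 1 and 247 in CCL4 replicate 2. Of the 11 markers, 5 lay lower in both HACY libraries, 2 lay higher in both and the others overlapped. Over all genes tested the shares were 30.1% lower in both and 30.7% higher in both. S100a9, a protein abundant in neutrophils, had 3.60 and 6.75 CPM in HACY and 11.8 and 112 in CCL4. Of the 9 tested, Cxcr2, a chemokine receptor, was called lower by edgeR, 4 were lower at an unadjusted p under 0.05 and DESeq2 called 2 lower. Without CCL4 replicate 1 there were 7 lower, without CCL4 replicate 2 there were 4 higher and 1 lower, and without either HACY library none was called. Of 4 tested markers of plasmacytoid dendritic cells, which rely on Tlr7 and Tlr9, 2 were called higher by edgeR, Ly6d and Klk1. Klk1 had 11 and 21 counts in HACY and 0 and 0 in CCL4, and DESeq2 gave it no adjusted p. Klk1, Siglech and Cox6a2 reached the filter's minimum count of 10 in the HACY libraries alone. The 2 of 4 is therefore a description only. The markers of these cells summed to 28.6 and 18.2 CPM in HACY and 6.32 and 5.82 in CCL4. Most of that was Ly6d (22.01 and 15.2 in HACY, 5.82 and 4.78 in CCL4). Siglech, a marker of these cells in mice, had 3.39 and 0.624 in HACY and 0.303 and 0.197 in CCL4. Siglech was not called (edgeR adjusted p = 0.0742). Conventional dendritic cell markers summed to 52.2 and 42.4 CPM in HACY and 19.4 and 24.1 in CCL4, with Cd209a at 0 in every library. Of the 5 tested, 2 were called higher by edgeR, Itgax and Ccr7. The Ccr7 call was lost by library size alone (edgeR adjusted p = 0.052) and by limma-voom (adjusted p = 0.056). It was also lost without HACY replicate 1 and without either CCL4 library. Markers of T and NK cells summed to at most 3.07 CPM in any library.

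The pathway around the receptors was described with 9 lists that share no gene with the family, 91 genes in all. Of the 87 tested, 29 were higher and 2 lower in HACY, with a median log2 fold change of 0.42. Over all genes tested the shares were 8.19% higher and 3.54% lower, and the counts of each list below stand beside them. Of these lists 7 held no call lower, and in them 4 members had a negative change at an unadjusted edgeR p below 0.05 and DESeq2 called 0 lower. Ligand-binding proteins and co-receptors included 4 of 6 tested genes that rose, and their median was 1.02. Cd180, a receptor related to TLR4, had 108 and 64.3 CPM in HACY and 18.5 and 21.6 in CCL4 (log2 fold change 2.105, SE 0.255, edgeR adjusted p = 0.00393). Ly86, which encodes its partner MD-1, rose by 1.90 (SE 0.27) and Cd36, a scavenger receptor that assists TLR2 with TLR6, by 1.34 (SE 0.205). Cd14, which hands lipopolysaccharide to TLR4, rose by 0.69 (SE 0.14), a call lost without either HACY library (edgeR adjusted p = 0.0628 and 0.194). Ly96, which encodes MD-2, the subunit of TLR4 that binds lipopolysaccharide, had 9.18 and 8.80 CPM in HACY and 11.8 and 8.38 in CCL4 and was not called.

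Among folding and trafficking genes 3 of 7 rose and 1 fell, with a median of 0.30. Unc93b1, the chaperone that escorts endosomal receptors, had 134 and 118 CPM in HACY and 79.3 and 74.9 in CCL4 (log2 fold change 0.71, SE 0.13, edgeR adjusted p = 0.0168). Slc15a3, an endolysosomal transporter, rose by 1.37 (SE 0.19), while its relative Slc15a4, needed for TLR7 and TLR9 responses in mice, fell by 0.715 on the log2 scale. Hsp90b1, a chaperone of most family members, rose by 0.57 (SE 0.14). Without HACY replicate 1 the calls of Unc93b1, Slc15a4 and Hsp90b1 were lost (edgeR adjusted p = 0.152, 0.139 and 0.252). Without HACY replicate 2 those of Slc15a4 and Hsp90b1 were lost (0.221 and 0.0894), and that of Hsp90b1 also without CCL4 replicate 1 (0.102) and by upper-quartile or library size scaling. Endosomal proteases, which trim the ectodomains of endosomal receptors, had 4 of 5 members higher, with a median of 1.04. Ctss, cathepsin S, had 594 and 450 CPM in HACY and 91.1 and 105 in CCL4, and rose by 2.41 (SE 0.17). Lgmn, Ctsl and Ctsb rose by 1.21, 1.01 and 0.92, and the Ctsb call was lost without HACY replicate 1 or CCL4 replicate 1 (edgeR adjusted p = 0.0625 and 0.0706).

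Of 6 adaptors, which carry the signal from the receptors, Myd88 (log2 fold change 0.62, SE 0.15) and Pik3ap1, which links the receptors to PI3-kinase (0.63, SE 0.14), were higher. Myd88 had 66.1 and 56.4 CPM in HACY and 39.3 and 40.7 in CCL4. Both calls were lost without HACY replicate 1 (edgeR adjusted p = 0.351 and 0.162) and without HACY replicate 2 (0.116 and 0.0952), and that of Myd88 without CCL4 replicate 1 (0.0656). Both were also lost by library size alone (0.0863 and 0.0617), and that of Myd88 by upper-quartile scaling (0.0540). Ticam1, which encodes TRIF, the adaptor of Tlr3, had 36.8 and 34.6 CPM in HACY and 33.3 and 33.6 in CCL4, and was not called. Of 17 kinases and ubiquitin ligases, Ripk1 was higher (0.56, SE 0.13) and Tab1, a partner of the kinase TAK1, was lower (-0.87, SE 0.18). The median was 0.11, and 1 call each way of 17 is near the 8.19% and 3.54% of all genes. Both calls were lost without either HACY library (edgeR adjusted p = 0.318 and 0.112 for Ripk1, 0.0922 and 0.180 for Tab1), and that of Ripk1 by library size alone (0.0872). Without CCL4 replicate 2 there were 3 lower, and without CCL4 replicate 1 there were 2 higher.

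Of 11 transcription factors 3 rose, and their median was 0.038. Irf7, the interferon regulatory factor that acts after TLR7 and TLR9, had 765 and 647 CPM in HACY and 205 and 209 in CCL4 (log2 fold change 1.77, SE 0.13, edgeR adjusted p = 0.00101). Irf5, which MyD88 also engages, rose by 1.16 (SE 0.14). Fos rose by 1.14 (SE 0.27), a call lost without HACY replicate 1 or CCL4 replicate 1 (edgeR adjusted p = 0.338 and 0.0880), by library size alone (0.0510) and by limma-voom (0.0579). Without CCL4 replicate 2, 1 factor was lower. The NF-kappaB subunits were not called, Nfkb1 having 150 and 140 CPM in HACY and 146 and 136 in CCL4. Of 12 negative regulators Cd300a, an inhibitory receptor of myeloid cells, was called (1.11, SE 0.26), and the median was 0.084. For this list 1 call of 12 is near the 8.19% of all genes called higher. That call was lost without HACY replicate 1 or CCL4 replicate 1 (edgeR adjusted p = 0.267 and 0.0862), and without CCL4 replicate 2 there were 2 higher and 1 lower.

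Cytokines and effectors that these receptors are known to induce had 6 of 15 tested members higher, with a median of 0.93. Cxcl10, a chemokine, had 60.9 and 44.9 CPM in HACY and 13.3 and 8.38 in CCL4 (log2 fold change 2.29, SE 0.27, edgeR adjusted p = 0.0036). Ccl5 rose by 1.99 (SE 0.23), Il10, an anti-inflammatory cytokine, by 1.88 (SE 0.42), Tnf by 1.35 (SE 0.27), Nfkbiz by 0.985 and Acod1, the itaconate-making enzyme, by 0.97 (SE 0.215). Il6 had 5.57 and 5.11 CPM in HACY and 1.92 and 3.25 in CCL4, and Il1b had 3.99 and 4.43 in HACY and 2.23 and 5.23 in CCL4. Cxcl2, a neutrophil attractant, had 108 and 46.3 CPM in HACY and 292 and 134 in CCL4. None of these last 3 genes was called. Without HACY replicate 1 there were 2 higher, the calls of Tnf, Il10, Nfkbiz and Acod1 being lost (edgeR adjusted p = 0.191, 0.160, 0.0597 and 0.237). Without HACY replicate 2 those of Il10 and Acod1 were lost (0.191 and 0.0595), and without CCL4 replicate 1 that of Tnf (0.0504). Without CCL4 replicate 2 there were 2 lower.

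Cytosolic sensors of nucleic acids, which act beside the endosomal receptors, had 5 of 8 members higher, with a median of 1.03. Zbp1 had 302 and 270 CPM in HACY and 80.2 and 69.6 in CCL4, and rose by 1.93 (SE 0.14). Dhx58, Ddx58 and Ifih1, which encode the RNA sensors LGP2, RIG-I and MDA5, rose by 1.535, 1.07 and 1.04. Aim2, a DNA sensor, rose by 1.03 (SE 0.21), a call lost without HACY replicate 1 or CCL4 replicate 1 (edgeR adjusted p = 0.192 and 0.0503). In the fit that omitted CCL4 replicate 2, 1 sensor was lower.

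**Figure D5:**
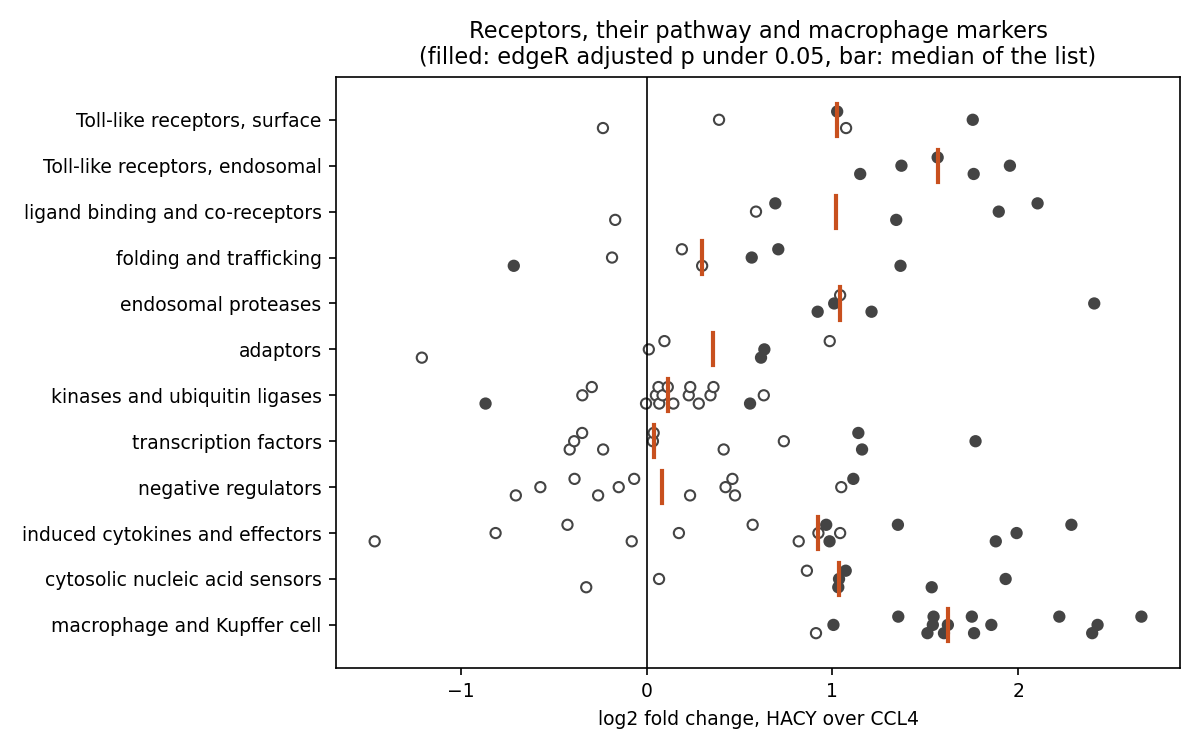
Log2 fold change, HACY over CCL4, of each tested gene of the receptor classes, of the pathway lists and of the macrophage markers, with called genes filled and a bar at each list's median. The endosomal receptors (median 1.57) lie near the macrophage markers (1.62), while kinases (0.11), transcription factors (0.038) and negative regulators (0.084) centre close to 0.

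Genes were ranked by likeness to Tlr8, the receptor with the smallest p, with rows named as predicted genes, RIKEN clones or dates passed over. The genes whose pattern over the 4 libraries was most like that of Tlr8 were Oasl2, Epsti1, Itgb6, Abcg3 and Uox. Likeness was the Euclidean distance between gene-centred log2 CPM values, which was 0.122 to 0.163 for these genes and 1.997 for the median gene. Oasl2, an interferon-induced gene, had 363 and 299 CPM in HACY and 82.5 and 91.8 in CCL4.

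The loci differ in how securely their reads can be assigned. Tlr1 (chromosome 5, 64924679 to 64933563, GRCm38) and Tlr6 (64952031 to 64960097) are neighbours 18467 bases apart, and their longest transcripts share a stretch of 229 identical bases. They share 340 words of 75 bases and no other pair of members shares any, so the split of reads between Tlr1 and Tlr6 is uncertain. Tlr7 (chromosome X, 167304929 to 167330558) and Tlr8 (167242696 to 167264329) lie 40599 bases apart, and their longest shared stretch was 13 bases. Tlr3 (chromosome 8, 45395665 to 45411080) overlaps an annotated antisense gene, and the other members overlap no other annotated gene. The strand setting of the counting was not stated in the labels, so reads of Tlr3 and its antisense partner may have been counted together.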

How the data were processed

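Paired-end stranded mRNA libraries were made from total RNA, per the labels' protocols. The deposited tables, 1 per library, hold a raw read count and an FPKM for each gene symbol, per the file headers, the FPKM being scaled by the authors to length and depth. Build mm10 and the tools HISAT2, HTSeq, Cufflinks, Trimmomatic and DESeq are listed, per the submitters' processing notes, with no version or role. The annotation used for counting is not given in the sources used here.

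The main test of the counts used edgeR 4.0.16 (R 4.3.3, filterByExpr with minimum count 10 and total 15, TMM, robust quasi-likelihood, treatment as the only term, two-sided, Benjamini-Hochberg over all genes tested). SE is the log2 fold change divided by the root of F. Alternatives used DESeq2 1.42.0, limma 3.58.1 and other scalings and filters, with each library left out. Counts of 13291 genes were simulated for this comparison, with 50 genes changed at each fold tried. Of these, 60% of 2-fold and 96% of 4-fold changes were recovered, and 8 of 144 calls were false. Replicates differed beyond counting noise, with chi-square per degree of freedom of 19.9 in HACY and 35.8 in CCL4. For a gene listed at 0, the limit of 3 counts equals 0.148 to 0.17 CPM.

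The members and gene lists were chosen with earlier results of these data known. All 10 receptors are named. Each pathway list gives at most 4 members of smallest p and any called, and marker lists up to 4 of highest level. Ly96, Ticam1, Nfkb1, Il6, Il1b, Cxcl2, Cd24a, Siglech, Cd209a, Cxcr2 and Clec4g were named, and the motifs and macrophage-marker ratios chosen, after values were seen. Gene locations are from GENCODE M21 and start windows from RefSeq.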

Additional observations from a re-analysis of the deposited data

How the results depend on the processing

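The 10 receptors kept their direction under all 15 alternatives, and with all 4 libraries the count-based alternatives (3 scalings, DESeq2, limma-voom, 2 filters, replicate block) called the same number, 7. FPKM without a filter, tested by limma, called 0 of the 10 receptors, and over all genes 1 higher and 0 lower. FPKM with the filter called 5 receptors at either pseudocount, and 598 genes higher at a pseudocount of 1 and 621 at 0.1. Genes lower numbered 1355 by library size alone and 738 by DESeq2. With each library left out, 4 to 8 receptors were called, and 530 to 1840 genes were higher and 99 to 1207 lower. By library size alone the median of all genes was -0.18, and that of the receptors 1.09. The cause of these shifts was not tested. With the replicate block, 7 receptors were called, with 893 genes higher. Among the pathway genes, that block lost the calls of Fos, Myd88, Hsp90b1, Cd300a and Il10 (edgeR adjusted p = 0.061, 0.0586, 0.0565, 0.0657 and 0.0603). Same-numbered libraries did not deviate together (correlation -0.099 across genes), so the numbers are not treated as pairs. Of 270 pathway list counts under alternatives, 227 were equal or within 1.5 times and 43 were not. Each group had 2 libraries, and members other than Tlr6 (37 to 108) had 64 to 2034 counts per library. In simulation the test recovered 16% of 1.5-fold changes. That simulation gave 144 calls against 1576 in the data, so its threshold was stricter and recovery in the data may be larger. Whether this bears on Tlr2, which changed by less than 2-fold, was not tested.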
